A study of Mus musculus with 18 samples.

Results

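The Toll-like receptor genes described here are Tlr1, Tlr2, Tlr4, Tlr5, Tlr6, Tlr7, Tlr8, Tlr9 and Tlr13, chosen by symbol in a gene count table of mouse spleen neutrophils. Of these 9 genes, 8 had a row among the 17941 gene symbols of the table, and 7 had enough counts to be among the 10104 genes tested. Tlr1 had a row but too few counts, and Tlr9 was not analysed here. Tlr3, Tlr11 and Tlr12, the other receptors of the mouse family, were not analysed here either.

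The series compared neutrophils of female NZBWF1/J mice, an F1 hybrid in which a disease resembling lupus develops in adult life, at 14, 20 and 26 weeks, which the submitters call stages of disease. Each age had 6 mice and 1 library per mouse. All 3 groups were of the same strain and sex and received no treatment, and no strain without lupus was among the samples, so that age and stage of disease cannot be told apart. Cells were sorted straight from the spleen as live single cells with Ly6B, CD11b and Ly6G on their surface and an intermediate level of Ly6C.

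Toll-like receptors are membrane proteins of innate immune cells that bind conserved parts of microbes. TLR2 (which pairs with TLR1 or TLR6 for lipopeptides), TLR4 (lipopolysaccharide) and TLR5 (flagellin) work at the cell surface, while TLR7, TLR8, TLR9 and, in mice, TLR13 sense nucleic acids inside endosomes. Binding recruits the adaptor MyD88 and a chain of kinases and ubiquitin ligases that ends in NF-kB and interferon regulatory factors. Neutrophils carry many of these receptors, and the endosomal ones are studied in lupus because RNA and DNA bound by autoantibodies can reach them.

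Libraries held 5546624 to 17256379 gene counts, and levels are given in CPM, that is counts divided by the TMM-scaled size of each library. All 12 neutrophil markers listed, such as S100a8, Ly6g and Csf3r, were tested, and their summed level was 109000 to 145600 CPM at 14 weeks, 35170 to 81610 CPM at 20 weeks and 98670 to 230500 CPM at 26 weeks. The markers did not move together. Called lower and higher were 9 and 1 (Csf3r) at 20 against 14 weeks, 4 and 5 at 26 against 14 weeks, and 1 and 7 at 26 against 20 weeks. Of all tested genes 10.2%, 11% and 16% were called in either direction in these comparisons. Among monocyte and macrophage markers, Adgre1, Csf1r, Cd68 and Ly6c2 passed the filter on low counts, while C1qa, C1qb, Ccr2, Cx3cr1, Mertk and Vcam1 had a median of 0 CPM at 20 weeks. The whole list summed to 766 to 1003 CPM at 14 weeks, 805 to 1288 CPM at 20 weeks and 759 to 1583 CPM at 26 weeks. Within these sums Ly6c2 averaged 533 CPM at 14 weeks, 169 CPM at 20 weeks and 863 CPM at 26 weeks. B cell markers, most of them Ighm counts, summed to 49.5 to 198.6 CPM at 14 weeks, 244 to 1873 CPM at 20 weeks and 87.6 to 296 CPM at 26 weeks. Dendritic cell markers summed to 7.98 to 23.6 CPM, 36.6 to 86.5 CPM and 10.7 to 28.3 CPM at the 3 ages, with Flt3, Xcr1, Siglech and Clec9a at a median of 0 CPM at 20 weeks. Itgax averaged 47.6 CPM at 20 weeks, where the dendritic cell list averaged 53.0 CPM. Ribosomal RNA took 0.0206 to 0.0262% of counts at 14 weeks, 0.00979 to 0.0458% at 20 weeks and 0.0466 to 0.441% at 26 weeks. Replicate 3 of 20 weeks had counts in 8119 genes, the fewest of the 18 libraries. The part of other cells and of RNA quality in the results below was not tested, except where a value is given, and fewer cells of a type cannot be told apart from less RNA per cell.

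Promoters are shown first for the 4 genes that were lower at 26 than at 14 weeks, since these genes share that direction (their changes at 20 against 14 weeks, from -0.93 to 0.03, were not called) and the letters allow their start regions to be set side by side. RefSeq's table (GRCm38.p6) had a promoter for 7 of the 9 genes, and none for Tlr4 and Tlr7. Each line below gives the 250 bases before the start site, 5′ to 3′ on the gene's strand, at chrX:106143025-106143274 (plus strand) for Tlr13, chrX:167264330-167264579 (minus strand) for Tlr8, chr3:83841609-83841858 (minus strand) for Tlr2 and chr1:182954538-182954787 (plus strand) for Tlr5. Capitals mark letters of 5 motifs searched on both strands: GAGGAA (an ETS core as bound by PU.1-type factors), TGANTCA (AP-1), TTGCNNAA (C/EBP), GAAANNGAA (IRF) and GGGANTTCC (NF-kB).
Tlr13: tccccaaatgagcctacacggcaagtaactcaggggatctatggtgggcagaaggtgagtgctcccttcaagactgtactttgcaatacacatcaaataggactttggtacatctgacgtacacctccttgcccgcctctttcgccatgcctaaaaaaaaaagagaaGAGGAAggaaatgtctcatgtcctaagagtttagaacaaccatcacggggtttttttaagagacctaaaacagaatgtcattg
Tlr8: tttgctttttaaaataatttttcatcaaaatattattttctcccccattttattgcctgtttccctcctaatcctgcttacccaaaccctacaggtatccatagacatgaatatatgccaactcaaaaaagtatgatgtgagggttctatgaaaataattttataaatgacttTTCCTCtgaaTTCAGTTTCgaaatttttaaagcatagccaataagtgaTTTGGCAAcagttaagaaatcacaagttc
Tlr2: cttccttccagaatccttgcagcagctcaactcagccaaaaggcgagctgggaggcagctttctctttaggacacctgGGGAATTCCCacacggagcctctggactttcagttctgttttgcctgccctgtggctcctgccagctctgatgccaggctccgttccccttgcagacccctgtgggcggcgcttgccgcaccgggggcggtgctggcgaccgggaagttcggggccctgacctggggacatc
Tlr5: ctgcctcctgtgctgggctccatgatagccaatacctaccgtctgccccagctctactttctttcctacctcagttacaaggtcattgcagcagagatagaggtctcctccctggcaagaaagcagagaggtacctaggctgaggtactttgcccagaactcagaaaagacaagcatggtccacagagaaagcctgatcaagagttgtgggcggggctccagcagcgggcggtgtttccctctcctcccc

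All 300 bases from 250 before to 50 after the start were searched, and positions count from the start site, with -1 the base before it. Tlr2 held NF-kB letters on both strands, GGGAATTCC from position -172 and GGAATTCCC from -171, which overlap in 1 run of capitals. Of 32851 promoters of the same length, 1.68% held that motif. Tlr13 and Tlr8 each held the ETS core, at -83 and at -77, which 28.3% of promoters held. Both also held C/EBP letters on the minus strand, TTTAGCAA at the start site of Tlr13 and, in Tlr8, TTTGGCAA at -29 and TTCTGCAA at 19, against 10.8% of all promoters. Tlr8 held IRF letters, TTCAGTTTC at -67, against 8.56% of promoters. The Tlr5 promoter had none of the 5 motifs, and AP-1 letters, in 7.81% of promoters, were in none of these 4. Among the members not shown, a Tlr1 promoter and the Tlr9 promoter held the ETS core. A Tlr6 promoter held C/EBP and IRF letters, and that of Tlr9 AP-1 letters. The ETS, C/EBP and IRF letters were thus not particular to the 4 genes shown. A match is a description of the letters and says nothing about binding.

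At 26 against 14 weeks Tlr13, Tlr2, Tlr5 and Tlr8 fell, 4 of the 7 tested genes, beside 5.54% of all tested genes called lower and 11% called in either direction (edgeR, adjusted p under 0.05). At 20 weeks Tlr4 alone was called against 14 weeks, and it rose, where 4.93% of all tested genes were called higher and 10.2% in either direction. Between 20 and 26 weeks Tlr4, Tlr13 and Tlr2 fell, beside 7.98% of all tested genes called lower and 16% in either direction. A test of any change with age called 5 of the 7, Tlr4, Tlr13, Tlr5, Tlr2 and Tlr8, beside 23% of all tested genes. The median log2 change of the 7 genes was -0.28 for 20 against 14 weeks, -1.12 for 26 against 14 weeks and -1.12 for 26 against 20 weeks, where all tested genes had -0.02, 0.04 and 0.05. The libraries of both ages did not overlap for Tlr4 at 20 against 14 weeks (higher, as for 2.97% of all tested genes), for Tlr5, Tlr8 and Tlr13 at 26 against 14 weeks (lower, 3.86%) and for Tlr4 and Tlr13 at 26 against 20 weeks (lower, 2.27%). The 3 comparisons share samples, so that their counts are not independent.

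**Figure D1:**
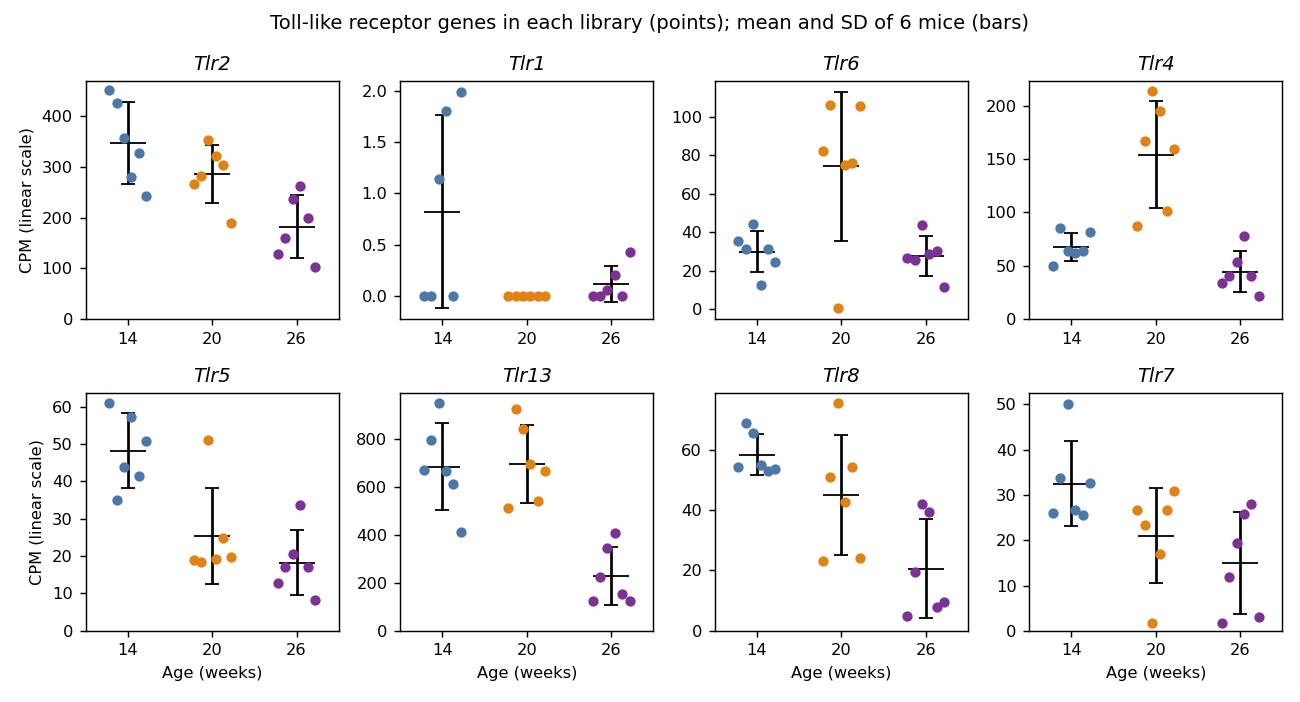
Level of each of the 8 receptor genes with a row, in CPM on a linear axis that differs between panels, by age in weeks. Points are single libraries, and bars give the mean and SD of 6 mice. Tlr13 was between 123 and 406 CPM at 26 weeks and above 410 CPM in every library of 14 weeks, and replicate 3 of 20 weeks lies near 0 for Tlr6.

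**Figure D2:**
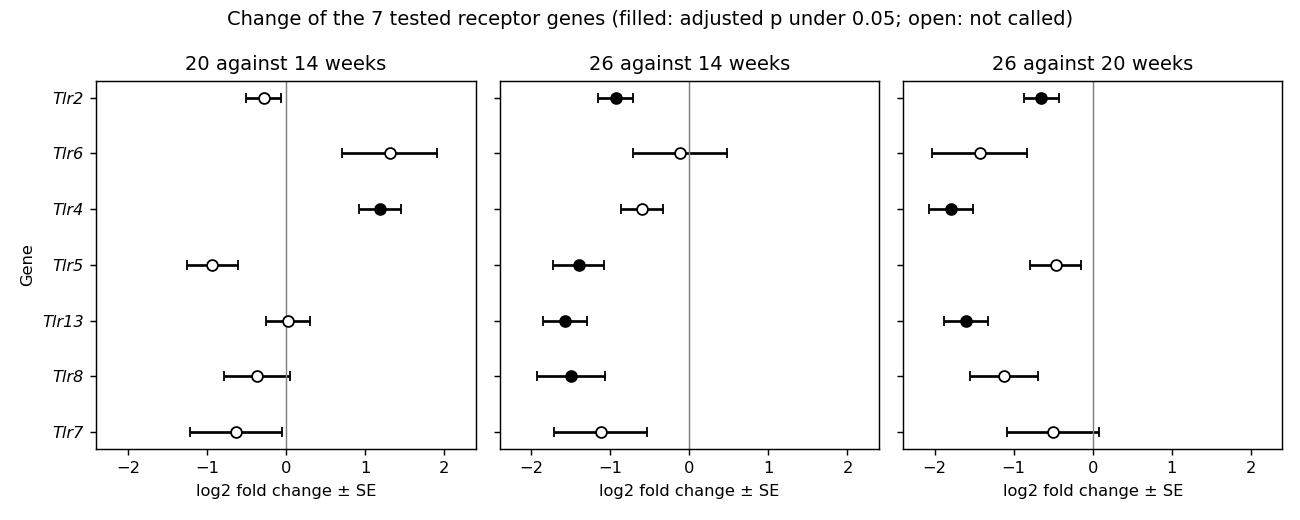
Fitted log2 fold changes of the 7 tested genes (older over younger age) with their SE, in the 3 comparisons. Filled points passed an adjusted p of 0.05: Tlr4 at 1.19 for 20 against 14 weeks, 4 genes between -0.93 and -1.57 for 26 against 14 weeks, and 3 genes between -0.65 and -1.79 for 26 against 20 weeks.

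Tlr2 encodes the receptor that all lipopeptide sensing shares. It lies on chromosome 3 (chr3:83836272-83841767, minus strand, GRCm38, GENCODE M21). Its level was 242.3 to 452 CPM at 14 weeks (median 343), 189 to 354 CPM at 20 weeks (median 293) and 104 to 263 CPM at 26 weeks (median 180.3). The highest libraries of 26 weeks overlapped with the lowest of both younger ages. Tlr2 averaged 182 ± 62.1 CPM at 26 weeks against 348 ± 81.5 CPM at 14 weeks (SD, n = 6 each), which is 1.91-fold lower (log2 change -0.93 ± 0.22 SE, edgeR adjusted p = 0.00984). Against 20 weeks, with 286 ± 56.6 CPM, the fall was 1.57-fold (-0.65 ± 0.22, edgeR adjusted p = 0.0457). That second call did not survive 11 of the 18 single-library removals (replicates 3, 4 and 5 of 14 weeks, 2, 3, 4 and 5 of 20 weeks, and 1, 2, 5 and 6 of 26 weeks, adjusted p from 0.0513 to 0.123), and also with no filter on low counts (-0.61, 0.0733), with only the 2 ages compared (-0.65, 0.0809) and with genes of other cell types left out (-0.63, 0.0529), where the log2 change stayed close to that reported. At 20 against 14 weeks Tlr2 changed by -0.28 ± 0.22 on the log2 scale and was not called (edgeR adjusted p = 0.494).

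Tlr6 and Tlr1 encode the partners of TLR2 for diacylated and triacylated lipopeptides. They are neighbours on the minus strand of chromosome 5, at chr5:64952031-64960097 and chr5:64924679-64933563. Their transcripts have a stretch of 229 identical bases inside the coding part of both (transcript bases 1652 to 1880 of Tlr6 and 1939 to 2167 of Tlr1), which is shown because a read of 100 nt that falls inside it could come from either gene:
Tlr6 and Tlr1: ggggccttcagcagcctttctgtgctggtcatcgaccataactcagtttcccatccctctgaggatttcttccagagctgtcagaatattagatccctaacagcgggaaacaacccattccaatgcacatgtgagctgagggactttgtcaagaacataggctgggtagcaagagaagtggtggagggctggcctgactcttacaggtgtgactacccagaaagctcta

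Of all windows of 100 bases, 7.09% of those in Tlr6 and 7.89% of those in Tlr1 occur in the other gene, and no other pair of these receptors shares such a window. Counts of both genes are therefore uncertain to that extent, since how shared reads were treated is not stated in the labels or processing notes. Tlr6 ranged from 12.8 to 44.4 CPM at 14 weeks (median 31.0), from 0.383 to 106 CPM at 20 weeks (median 79.0) and from 11.3 to 43.5 CPM at 26 weeks (median 27.4). At 20 weeks 5 libraries lay between 74.9 and 106 CPM, above every library of the other ages, and replicate 3 had 4 counts. With that library in the fit, Tlr6 was not called in 20 against 14 weeks (1.31 ± 0.60, edgeR adjusted p = 0.194), in 26 against 20 weeks (-1.43 ± 0.60, adjusted p = 0.116) or in the test of any change (adjusted p = 0.12). Without it, log2 changes were 1.57 and -1.69, with edgeR adjusted p = 0.00268 and 0.00127, and any change had 0.00072. With it, limma-voom called Tlr6 at 20 against 14 weeks (1.45, adjusted p = 0.048), 26 against 20 weeks (-1.68, 0.0341) and for any change (0.0164), and edgeR with the GC correction at 26 against 20 weeks (-1.70, 0.0408) and for any change (0.0458). At 26 weeks Tlr6 averaged 27.5 ± 10.3 CPM against 29.9 ± 10.6 CPM at 14 weeks (SD, n = 6 each), and was not called (-0.12 ± 0.59, edgeR adjusted p = 0.942).

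Tlr1 was hardly detected at any age. It had 14, 21 and 23 counts in 3 libraries of 14 weeks and none in the other 3, no count in any library of 20 weeks, and 1, 2 and 4 counts in 3 libraries of 26 weeks. Sums over an age were 58 counts at 14 weeks, 0 at 20 and 7 at 26 weeks. The summed level at 20 weeks was at least 19.3-fold lower than at 14 weeks, taking 3 counts over the 6 libraries as the limit that a count of 0 allows (counting error only). When edgeR was run with no filter, Tlr1 was not called in 20 against 14 weeks (adjusted p = 0.0644), 26 against 14 weeks (0.37) or 26 against 20 weeks (0.146).

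Tlr4, the lipopolysaccharide receptor gene, had the highest level at the middle age. It lies at chr4:66827584-66930284 on the plus strand. Libraries held 49.8 to 85.4 CPM at 14 weeks (median 63.7), 87.3 to 213 CPM at 20 weeks (median 163) and 21.4 to 78.1 CPM at 26 weeks (median 40.1). The 6 libraries of 20 weeks were all above the 12 of the other ages. Tlr4 averaged 154 ± 50.2 CPM at 20 weeks against 67.7 ± 13.4 CPM at 14 weeks (SD, n = 6 each), a 2.27-fold rise (1.19 ± 0.27, edgeR adjusted p = 0.00774). At 26 weeks it averaged 44.5 ± 19.5 CPM, which was 3.45-fold lower than at 20 weeks (-1.79 ± 0.28, edgeR adjusted p = 0.000423). Both calls were kept in all 18 single-library removals and in the 12 other settings tried. Its change from 14 to 26 weeks was not called (-0.60 ± 0.27, edgeR adjusted p = 0.174), except without replicate 4 of 26 weeks (-0.84, adjusted p = 0.0303) and by limma-voom (-0.84, 0.0161). The monocyte and macrophage markers Adgre1, Csf1r and Cd68 were also called higher at 20 than at 14 weeks and Ly6c2 lower. Among the 3 tested dendritic cell markers Itgax was called higher (3.02 on the log2 scale). Tcf4 (-1.02) and Bst2 (-0.31) had the other sign and were not called. Rises were also called for B and plasma cell genes (Ighm 3.10, Cd22 2.90, Jchain 10.72, Igkc 6.58 and Xbp1 1.06 on the log2 scale). Among eosinophil genes Ccr3 was called higher (2.69). Siglecf (1.84, edgeR adjusted p = 0.0708) and Ear2, with the other sign (-1.43, edgeR adjusted p = 0.117), were not called. The plasma cell list summed to 128.5 to 186 CPM at 14 weeks, 349.5 to 2075 CPM at 20 weeks and 184 to 689 CPM at 26 weeks, and the eosinophil list to 9.16 to 24.8 CPM, 37.1 to 78.5 CPM and 17.3 to 42.1 CPM. The part of these cells in the level of Tlr4 was not tested. Its calls were kept with the genes of other cell types left out, but that fit drops only the rows of those genes. It cannot remove Tlr4 counts that other cells gave.

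Tlr5, the flagellin receptor gene, was highest at the youngest age. It lies at chr1:182954788-182976044 on the plus strand. Its level was 34.9 to 61.1 CPM at 14 weeks (median 47.3), 18.5 to 50.9 CPM at 20 weeks (median 19.5) and 8.29 to 33.8 CPM at 26 weeks (median 17.1). No library of 26 weeks reached the lowest of 14 weeks, and at 20 weeks only replicate 3, with 50.9 CPM, reached the range of 14 weeks, while the other 5 lay between 18.5 and 24.8 CPM. Tlr5 averaged 18.3 ± 8.69 CPM at 26 weeks against 48.2 ± 9.99 CPM at 14 weeks (SD, n = 6 each), a 2.64-fold fall (-1.40 ± 0.32, edgeR adjusted p = 0.00894). At 20 weeks the difference from 14 weeks was not called (-0.93 ± 0.32, edgeR adjusted p = 0.0709). It was called without replicate 3 of 20 weeks (-1.25, adjusted p = 0.00773) or replicate 4 of 26 weeks (-0.93, 0.0452), by DESeq2 (-0.89, 0.042) and by limma-voom (-1.14, 0.00709). The change from 20 to 26 weeks was not called (-0.47 ± 0.32, edgeR adjusted p = 0.358).

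Tlr13, a mouse receptor gene for bacterial ribosomal RNA that human genomes lack in working form, had the highest CPM per kb of the family in every library of 14 and 20 weeks and in 2 of 6 of 26 weeks. It lies at chrX:106143204-106160493 on the plus strand. Libraries ranged from 410.4 to 949 CPM at 14 weeks (median 666), from 509.8 to 923 CPM at 20 weeks (median 681) and from 123 to 406 CPM at 26 weeks (median 189). All 6 libraries of 26 weeks were below all 12 of the younger ages, while the younger ages overlapped widely. Tlr13 averaged 229.9 ± 121 CPM at 26 weeks, against 696 ± 162 CPM at 20 weeks and 683 ± 181 CPM at 14 weeks (SD, n = 6 each). The fall was 3.02-fold against 20 weeks (-1.60 ± 0.28, edgeR adjusted p = 0.000986) and 2.97-fold against 14 weeks (-1.57 ± 0.28, adjusted p = 0.00247), and both calls were kept in all 18 single-library removals. Between 20 and 14 weeks the change was 0.03 ± 0.28 (edgeR adjusted p = 0.973).

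Tlr8 and Tlr7 encode endosomal receptors for RNA and its breakdown products. They are neighbours on the minus strand of chromosome X, at chrX:167242696-167264329 and chrX:167304929-167330558. Tlr8 ranged from 53.0 to 68.7 CPM at 14 weeks (median 54.6), from 23.1 to 75.3 CPM at 20 weeks (median 46.6) and from 4.86 to 42.0 CPM at 26 weeks (median 14.5). The libraries of 14 weeks lay close together, and every library of 26 weeks was below them. Tlr8 averaged 20.5 ± 16.4 CPM at 26 weeks against 58.3 ± 6.88 CPM at 14 weeks (SD, n = 6 each), a 2.82-fold fall (-1.50 ± 0.43, edgeR adjusted p = 0.0315). The call did not survive 9 of the 18 single-library removals (replicates 1, 2, 3, 4 and 5 of 14 weeks, and 1, 2, 5 and 6 of 26 weeks, adjusted p from 0.0504 to 0.08). The call of any change (adjusted p = 0.0421) was lost in 13 of them, without any 1 library of 14 weeks, replicate 2, 4 or 5 of 20 weeks, or replicate 1, 2, 5 or 6 of 26 weeks (0.0515 to 0.103), and with no filter on low counts (0.0526). At 26 against 20 weeks Tlr8 was not called (-1.12 ± 0.43, edgeR adjusted p = 0.0833), but was without replicate 3 or 4 of 26 weeks (0.0261 and 0.0334), by DESeq2 (0.0431), by limma-voom (0.0342) and with the corrections for gene length (-1.68, 0.0178) and GC content (-1.73, 0.0122). At 20 against 14 weeks its change was -0.37 ± 0.42 (edgeR adjusted p = 0.677).

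Tlr7, whose extra copy or overexpression is known to promote lupus-like disease in mice, was not called in any comparison by edgeR. Its level was 25.5 to 50.2 CPM at 14 weeks (median 29.7), 1.72 to 30.9 CPM at 20 weeks (median 25.0) and 1.66 to 28.1 CPM at 26 weeks (median 15.6). Replicates 1 and 6 of 26 weeks had 1.66 and 3.08 CPM and replicate 3 of 20 weeks 1.72 CPM, so that libraries of 1 age differed by more than the medians of the ages. Its log2 changes were -0.63 ± 0.58 for 20 against 14 weeks, -1.12 ± 0.59 for 26 against 14 weeks and -0.50 ± 0.58 for 26 against 20 weeks (edgeR adjusted p = 0.587, 0.265 and 0.636). Limma-voom, which gives libraries unequal weights, called it lower at 26 than at 14 weeks (-1.90, adjusted p = 0.00527). For any change with age limma-voom called it too (adjusted p = 0.00813).

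Several library measures differed among the 26 week libraries together with the receptor level, and they are given here by ribosomal RNA. Replicates 5, 1 and 6 had 0.441%, 0.2402% and 0.1705% of counts in ribosomal RNA, a summed receptor level of 283 to 478 CPM and 123 to 155 CPM of Tlr13. The other 3 had 0.0466 to 0.127%, 498 to 875 CPM and 224 to 406 CPM. The same 3 replicates, 5, 1 and 6, were also highest in the summed neutrophil markers (177900 to 230500 CPM, against 98670 to 150300 CPM in the other 3). So they were in the share of the 10 most abundant genes (33.3 to 34.8%, against 21.2 to 29.2%). The T cell list (203 to 382 CPM, against 100.1 to 179 CPM) and the monocyte and macrophage list (1197 to 1583 CPM, against 759 to 1194 CPM) were highest there too. Most of each list was 1 gene. At 26 weeks Cd3d averaged 200 CPM where the T cell list averaged 209 CPM. Ly6c2 averaged 863 CPM where the monocyte and macrophage list averaged 1206 CPM. Leaving out those 3 libraries, a choice made after seeing the data, left 3 mice at 26 weeks and called 0 of the 7 receptor genes in 26 against 14 weeks, 1 (Tlr4) in 26 against 20 weeks and 2 (Tlr4 and Tlr13) for any change, while the calls over all genes dropped to 4, 138 and 845. In 26 against 14 weeks 4 of the 7 then had an unadjusted p under 0.05 in edgeR. The log2 changes in 26 against 14 weeks were then -1.05 for Tlr13, -0.64 for Tlr2, -1.0 for Tlr5 and -0.78 for Tlr8 (edgeR adjusted p = 0.113, 0.288, 0.294 and 0.446). In 26 against 20 weeks they were -1.09 for Tlr13 (0.0525), -0.37 for Tlr2 (0.543) and -1.41 for Tlr4 (0.0358). The part of each of these measures in the falls was not tested further.

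**Figure D3:**
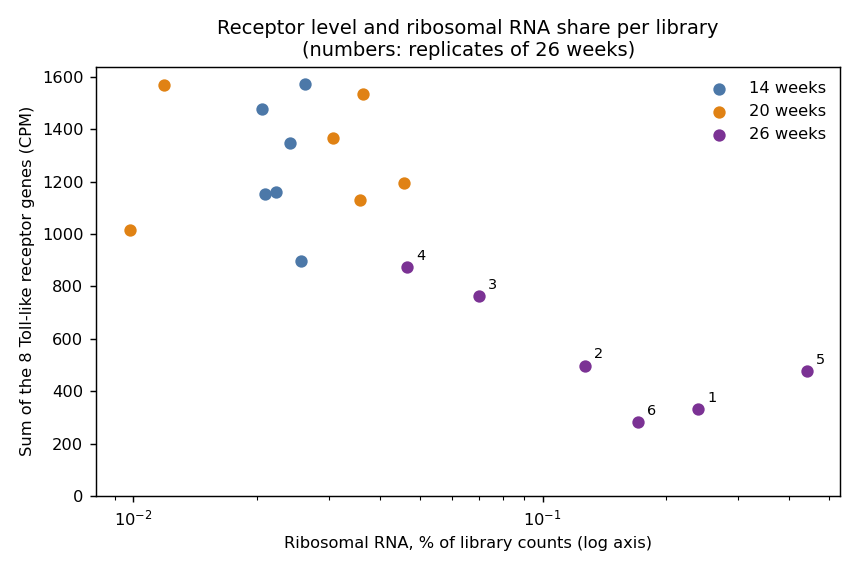
Summed CPM of the 8 receptor genes against the share of ribosomal RNA in each library's counts, on a log horizontal axis. Points are libraries coloured by age, and numbers mark replicates of 26 weeks. The 3 libraries of 26 weeks with 0.1705% or more lie at 478 CPM or below, and libraries of 14 and 20 weeks lie at 898 CPM or above with less than 0.0466%.

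Between genes, levels were compared as CPM per kb of exon. At 14 weeks Tlr13 had a median of 155 CPM per kb and Tlr2 of 114, followed by Tlr8 (15.2), Tlr4 (11.5), Tlr5 (9.88), Tlr6 (8.32), Tlr7 (7.28) and Tlr1 (0.170). At 20 weeks the medians were 158 for Tlr13 and 97.2 for Tlr2, then 29.4 for Tlr4, 21.2 for Tlr6, 13.0 for Tlr8, 6.12 for Tlr7 and 4.07 for Tlr5. At 26 weeks Tlr2 had 59.8 and Tlr13 44.0 CPM per kb, and Tlr6 (7.35), Tlr4 (7.21), Tlr8 (4.05), Tlr7 (3.82) and Tlr5 (3.57) followed. Tlr2 and Tlr13 stood above every other receptor in every library, at 80.4 or more against 19.2 or less at 14 weeks, 62.7 or more against 38.4 or less at 20 weeks and 28.6 or more against 14.1 or less at 26 weeks. Tlr13 was above Tlr2 in 6 of 6 libraries of 14 weeks and 6 of 6 of 20 weeks, and in 2 of 6 of 26 weeks. Among the lower receptors, Tlr1 lay below all the others at each age. The other ranges overlapped between neighbours in the order at every age, so that neighbours are not resolved. Genes farther apart were in part: Tlr8, at 14.8 to 19.2 CPM per kb at 14 weeks, lay above all libraries of Tlr5, Tlr6 and Tlr7, and Tlr4, at 15.7 to 38.4 CPM per kb at 20 weeks, above all of Tlr7 and Tlr5.

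The make-up of the receptor counts is given as a description, with no test. Tlr13 took 45.7 to 60.3% of the summed receptor level at 14 weeks, 47.9 to 58.8% at 20 weeks and 32.4 to 46.4% at 26 weeks. Tlr2 took 22.6 to 33.6%, 15.8 to 27.0% and 30.1 to 41.9% at the 3 ages. The share of Tlr4 was 3.70 to 9.10% at 14 weeks, 8.60 to 14.3% at 20 weeks and 7.06 to 10.1% at 26 weeks. The shares of Tlr13 at 26 weeks lay below all those at 20 weeks and overlapped in range with 14 weeks, and those of Tlr2 lay above all at 20 weeks. All 8 genes together summed to 898 to 1574 CPM at 14 weeks, 1015 to 1570 CPM at 20 weeks and 283 to 875 CPM at 26 weeks, with no overlap between 26 weeks and the younger ages.

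**Figure D4:**
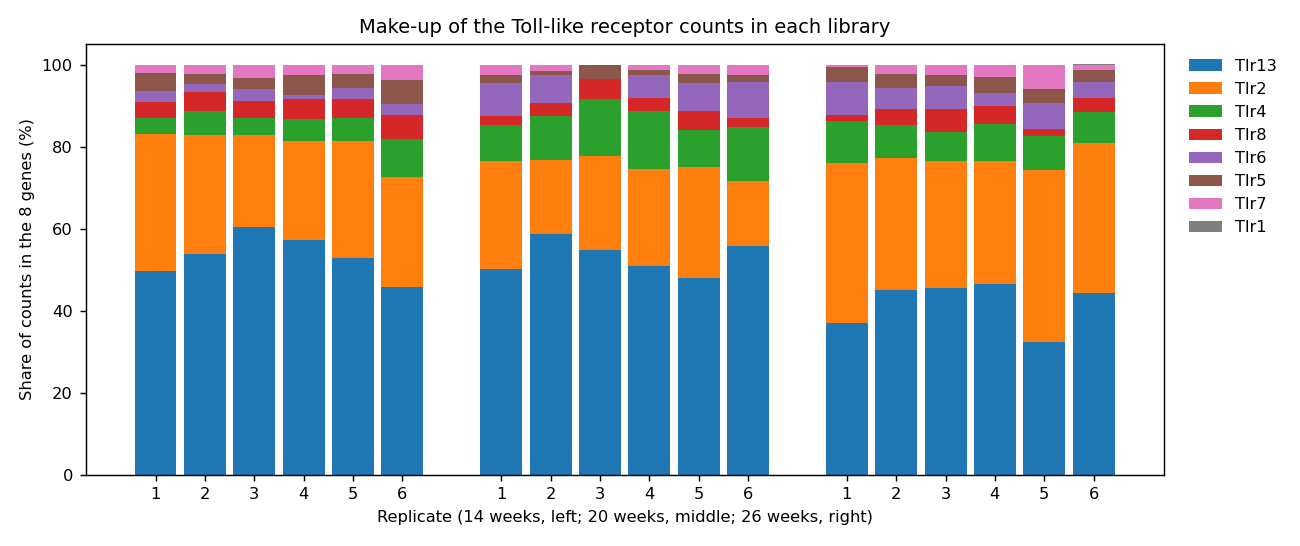
Share of each receptor gene in the summed counts of the 8 genes, in percent, as stacked bars for the 18 libraries, with replicates of 14 weeks at the left, 20 weeks in the middle and 26 weeks at the right. Tlr13 makes up 32.4 to 46.4% at 26 weeks and 45.7% or more in every younger library, and replicate 3 of 20 weeks has 0.0250% of Tlr6.

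The genes whose profiles over the 18 libraries were most like each receptor's were found by the root mean square difference of centred log2 CPM among 4228 well expressed genes. For Tlr13 they included Dhrs9 (0.22) and Il17ra (0.31), where Tlr13 itself had an SD of 0.96. Tlr8 (SD 1.14) was nearest to Dhrs9 (0.45), Far1os (0.48) and Khnyn (0.49). Tlr2 (SD 0.57) was close to Prex1 (0.24) and Snx18 (0.25), and Tlr4 (SD 0.90) to Ttc7 (0.31), Slc44a1 (0.32) and Ttyh3 (0.34). Tlr5 (SD 0.81) had Bmx (0.28), Rin2 (0.35) and Mmp25 (0.39) as neighbours. For Tlr6 (SD 1.70) and Tlr7 (SD 1.42) the smallest differences were 0.70 for Crtc2 and 0.82 for Kdm5c. Within the family Tlr8 and Tlr13 differed by 0.50, as did Tlr2 and Tlr5, and Tlr6 differed by at least 1.31 from each of the others. Without replicate 3 of 20 weeks, which has 0.383 CPM of Tlr6 (a choice made after seeing the data), the SD of Tlr6 was 0.95 and its nearest receptor was Tlr4 at 0.58, and Tlr7 had an SD of 1.22.

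Genes that act with the receptors were described by lists ordered by role. Of 5 tested ligand carriers and co-receptors, 2 were called higher at 20 than at 14 weeks, beside 4.93% of all tested genes. Cd14, which hands lipopolysaccharide to TLR4, averaged 1460 ± 324 CPM at 20 weeks against 856 ± 229 CPM at 14 weeks (0.77 ± 0.23, edgeR adjusted p = 0.0361), and Hmgb1, a nuclear protein that acts as a danger signal outside cells, rose by 0.77 ± 0.19 on the log2 scale. Lbp, the lipopolysaccharide binding protein gene, was the 1 member that edgeR called at 26 weeks. It averaged 125 ± 20.4 CPM against 37.3 ± 17.2 CPM at 20 weeks (1.74 ± 0.29, edgeR adjusted p = 0.00068) and 54.6 ± 19.7 CPM at 14 weeks (1.19 ± 0.29, adjusted p = 0.0116). Of all 10104 tested genes, 811 and 551 were called higher in these comparisons. At 26 against 14 weeks DESeq2 and limma-voom each called 2 of the 5 members higher. Ly96, the partner of TLR4, had 32.1 CPM at 26 weeks, 15.4 CPM at 20 weeks and 15.3 CPM at 14 weeks and was not called by edgeR.

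Among 9 genes for chaperones, transporters and proteases of endosomal receptors, 3 rose at 20 against 14 weeks (4.93% of all tested genes did), and 3 fell at 26 against 20 weeks (7.98%). Unc93b1, which carries the nucleic acid receptors to endosomes, averaged 652 ± 111 CPM at 20 weeks against 316 ± 59.8 CPM at 14 weeks (1.05 ± 0.21, edgeR adjusted p = 0.00337). It fell to 299 ± 109 CPM at 26 weeks, against the same 652 ± 111 CPM at 20 weeks (-1.12 ± 0.21, adjusted p = 0.00129). Ctsb, a lysosomal protease gene, had the same pattern (0.53 ± 0.13 and then -0.42 ± 0.13). Ctss, another protease of endosomes, was at 91.8 ± 24.9 CPM at 20 weeks and 60.0 ± 30.5 CPM at 26 weeks against 21.4 ± 11.97 CPM at 14 weeks (2.10 ± 0.38 and 1.49 ± 0.38, both called). Slc15a4, an endosomal transporter gene that TLR7 and TLR9 signalling needs in mice, was called lower at 26 than at 20 weeks (-1.08 ± 0.35, edgeR adjusted p = 0.0377). The endosomal receptors with a test did not follow Unc93b1 at 20 weeks: Tlr13, Tlr8 and Tlr7 had log2 changes of 0.03, -0.37 and -0.63 against 14 weeks, none of them called.

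Of the 4 adaptor genes tested, Myd88, shared by all of these receptors, rose to 624 ± 120 CPM at 20 weeks against 350.4 ± 41.0 CPM at 14 weeks (0.83 ± 0.17, edgeR adjusted p = 0.00447) and fell to 372 ± 106 CPM at 26 weeks against that level at 20 weeks (-0.75 ± 0.17, adjusted p = 0.00603). Tirap, the bridge between MyD88 and TLR2 or TLR4, was lower at both older ages than at 14 weeks (-0.67 ± 0.18 at 20 and -0.64 ± 0.18 at 26 weeks). Ticam1 and Ticam2, adaptors of the MyD88-independent arm of TLR4, averaged 1.47 to 7.18 CPM at every age and were not called. Over all tested genes 10.2% were called in either direction at 20 against 14 weeks, 11% at 26 against 14 weeks and 16% at 26 against 20 weeks. Of 16 kinases and ubiquitin ligases, 3 fell at 26 against 14 weeks (5.54% of all tested genes did), Ikbkg (-0.87 ± 0.20), Ikbkb (-0.79 ± 0.24) and Traf6 (-1.32 ± 0.42), which act between MyD88 and NF-kB. Peli1, a ubiquitin ligase of the same route, was the 1 gene of the list called at 20 against 14 weeks (1.19 ± 0.22) and at 26 against 20 weeks (-1.14 ± 0.22), a share near or below that of all tested genes (4.93% higher and 7.98% lower).

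Of 7 transcription factor genes, Nfkb2 (1.22 ± 0.30) and Irf3 (1.21 ± 0.36) rose at 20 against 14 weeks, beside 4.93% of all tested genes. Rela (-0.79 ± 0.19), Nfkb2 (-1.23 ± 0.30) and Irf5 (-1.14 ± 0.33) fell at 26 against 20 weeks, beside 7.98%. At 26 against 14 weeks edgeR, DESeq2 and limma-voom each called 0 of the 7, and 0 had an unadjusted p under 0.05. Of 11 inhibitors of the pathway 4 fell at 26 against 14 weeks, beside 5.54% of all tested genes. Irak3, a kinase-dead relative that damps receptor signalling, averaged 109 ± 29.4 CPM at 26 weeks against 212 ± 33.1 CPM at 14 weeks (-0.96 ± 0.17, edgeR adjusted p = 0.00227). Tollip (-0.93 ± 0.21), Tax1bp1 (-0.85 ± 0.20) and Tnip1 (-0.81 ± 0.24) were the other 3. Irak3 (-0.54 ± 0.17), Tollip (-0.66 ± 0.21) and Trafd1 (-1.08 ± 0.31) fell at 26 against 20 weeks, beside 7.98% of all tested genes. At 20 against 14 weeks edgeR and DESeq2 called 0 of the 11 and limma-voom 2, and 3 had an unadjusted p under 0.05 in edgeR.

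Of 6 tested target genes of the pathway 4 rose at 20 against 14 weeks, beside 4.93% of all tested genes. Il1b, an inflammatory cytokine gene, averaged 2574 ± 836 CPM at 20 weeks against 638 ± 333 CPM at 14 weeks (2.01 ± 0.35, edgeR adjusted p = 0.00127). The chemokine genes Cxcl2 (2.47 ± 0.64) and Ccl3 (2.32 ± 0.65) and the NF-kB cofactor gene Nfkbiz (0.87 ± 0.22) were the other 3. Il1b was the 1 target that edgeR called at 26 against 14 weeks (1638 ± 703 CPM against 638 ± 333 CPM, 1.36 ± 0.34, edgeR adjusted p = 0.014). Of all 10104 tested genes 551 were called higher there. DESeq2 called 3 of the 6 targets higher and limma-voom 2, and 4 had an unadjusted p under 0.05 in edgeR. At 26 against 20 weeks edgeR called 0 of the 6, DESeq2 and limma-voom 1 each, and 1 had an unadjusted p under 0.05. Tnf averaged 22.4 CPM at 26 weeks, 9.42 CPM at 20 weeks and 12.2 CPM at 14 weeks, and was not called by edgeR.

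**Figure D5:**
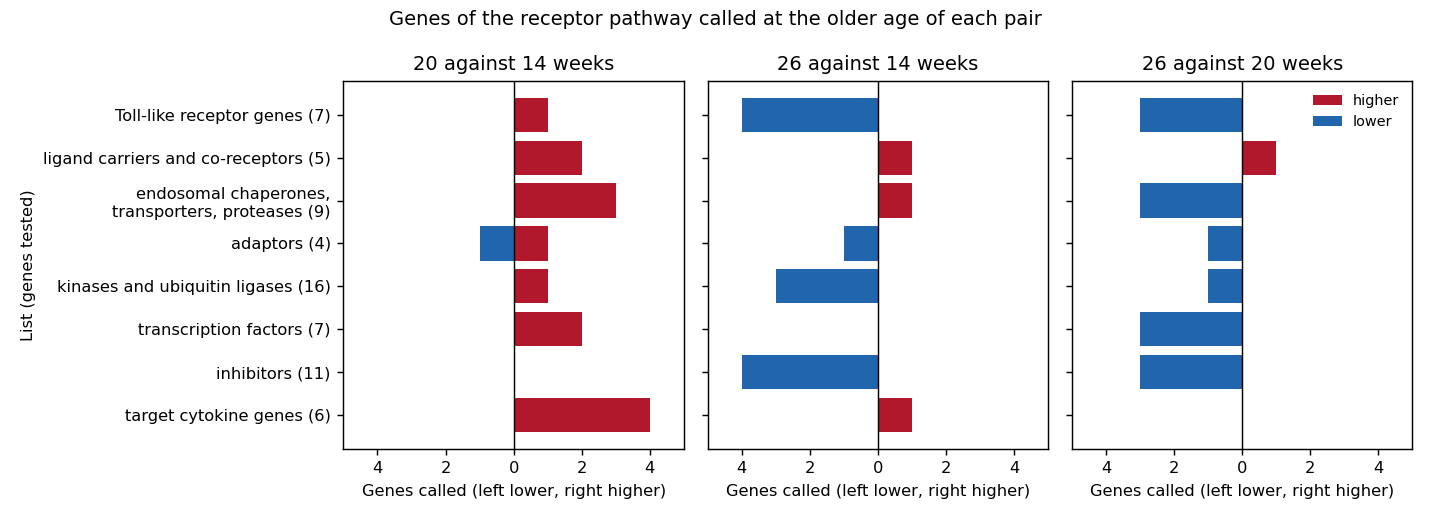
Number of genes called in each list of the receptor pathway (tested genes in parentheses), with genes lower at the older age to the left of 0 and genes higher to the right. At 20 against 14 weeks the calls are mostly higher, with 4 of 6 target genes and 3 of 9 endosomal factors, and at 26 weeks mostly lower, with 4 of 7 receptors and 4 of 11 inhibitors against 14 weeks. Of all tested genes 4.93% were called higher at 20 against 14 weeks and 5.54% lower at 26 against 14 weeks.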

How the data were processed

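RNA of sorted spleen neutrophils was sequenced in 18 libraries, 6 labelled biological replicates at each of 3 ages, as single-end reads of 100 nt per the labels' protocols. The deposited values are raw counts of reads for each symbol. The submitters' processing notes name the build GRCm38.p4 and the tools STAR 2.4.2a, Trimmomatic 0.32, DESeq, DESeq2 1.12.3 and HTSeq 0.6.1, with no role for each. Annotation, strand setting and treatment of shared reads are not stated there or in the labels. All 18 columns were used, matched by name to the labels' descriptions.

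All libraries entered 1 fit of edgeR 4.0.16 (R 4.3.3) with robust quasi-likelihood F tests, filterByExpr grouped by age, TMM scaling and no term other than age, and with Benjamini-Hochberg adjustment over 10104 genes. SEs are the absolute log2 fold change divided by the root of F. CPM divide counts by TMM-scaled library totals over the 10104 tested genes (totals over all rows were 5546624 to 17256379). Profiles used log2 CPM with a prior count of 2. Replicates differed by more than counting error (mean chi-square per gene 26.1 to 182). The floor given for Tlr1 covers counting error only, while the SEs include the spread between mice. Coordinates and exonic lengths are from GENCODE M21, where 16820 symbols matched directly, 454 by synonym and 667 did not.

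Members and lists were chosen with earlier results of these data known. All members are named, up to 4 called genes per pathway list and comparison by smallest p, and the 3 nearest profiles per member. Some genes this rule names are not reported here. Alternatives were RLE and upper quartile factors, DESeq2 1.42.0, limma-voom (limma 3.58.1), a fit with replicate number as block, fits of only 2 ages, other filters (none, or 10 CPM in 6 libraries), other cell types' genes left out, a loess correction for gene length, and each library left out. A loess correction for GC content and leaving out 3 libraries high in ribosomal RNA were chosen after seeing the data. The labels give no batch.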

Additional observations from a re-analysis of the deposited data

Results flagged for a closer look

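Among 36 groups of 6 libraries checked, 3 had a library at one end whose gap to the nearest other took up more of the group's range than Dixon's critical value allows. Chance alone gives about 1 in 20 such groups. Tlr6 had 0.383 CPM in replicate 3 of 20 weeks, where the nearest library had 74.9 CPM. Tlr5 had 50.94 CPM in the same library, where the nearest had 24.82 CPM. That library also had counts in the fewest genes (8119). Tlr7 had 50.18 CPM in replicate 3 of 14 weeks, where the nearest library had 33.82 CPM.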

How the results depend on the processing

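Tlr4 (20 against 14 and 26 against 20 weeks) kept its direction and its calls in every setting tried. Tlr2, Tlr5, Tlr8 and Tlr13 (26 against 14 weeks) kept their direction in every setting, and their calls in all but the one without the 3 libraries highest in ribosomal RNA, apart from the fits without 1 library given for Tlr8. Receptor genes called in 20 against 14 weeks numbered 1 in the reported fit, 2 by DESeq2 and 3 by limma-voom. In 26 against 20 weeks they numbered 3 in the reported fit and 5 by limma-voom and with a loess correction for GC content. Without the 3 libraries of 26 weeks highest in ribosomal RNA the counts were 0 for 26 against 14 weeks, 1 for 26 against 20 weeks and 2 for any change, with fewer samples in the fit. The sign of some uncalled changes turned: Tlr13 in 20 against 14 weeks to -0.01 by limma-voom, Tlr2 and Tlr8 in 20 against 14 weeks to 0.10 and 0.08 with the GC correction, and Tlr6 in 26 against 14 weeks to 0.13 without the libraries high in ribosomal RNA. The cause was not tested. Leaving out 1 library at a time gave 1 to 3 receptor genes called in 20 against 14 weeks (more without replicate 3 of 20 weeks, 3, or replicate 4 of 26 weeks, 2), 3 to 5 in 26 against 14 weeks, 2 to 4 in 26 against 20 weeks and 4 to 6 for any change. It turned the uncalled change of Tlr13 in 20 against 14 weeks (-0.09 to 0.14) below 0 and that of Tlr6 in 26 against 14 weeks (-0.28 to 0.07) above 0. With the replicate number as a block, 1, 4, 4 and 5 receptor genes were called in 20 against 14, 26 against 14, 26 against 20 weeks and for any change, the added one being Tlr8 in 26 against 20 weeks (-1.33, adjusted p = 0.0236). Libraries with the same number do not deviate together (18 pairs, r from -0.0527 to 0.136, 4 of 18 best partners with the same number), so the number does not pair the mice. Corrections for gene length and GC content moved the median of all genes by over 0.1 (0.23 in 20 against 14 and -0.32 in 26 against 20 weeks for both), and the share of all calls that were higher from 48.3% to 76.8% and 76.9% in 20 against 14 weeks, from 49.6% to 26.5% and 32.1% in 26 against 14 weeks, and from 50.2% to 18% and 19.7% in 26 against 20 weeks. Upper quartile factors moved that share to 62.0% in 26 against 14 weeks, and DESeq2 to 59.8%. All genes called numbered 1030, 1111 and 1617 in 20 against 14, 26 against 14 and 26 against 20 weeks, against 1727, 1808 and 2553 by DESeq2, and 2633 by limma-voom and 554 with the length correction in 26 against 14 weeks. Depth limits Tlr1, with 58 counts or fewer per age.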
